A study of Mus musculus with 10 samples.

Results

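Hras, Myc, Fosb, Ccnd1, Cdkn2a, Cdkn2b, Trp53, Tmem54 and Cd74 are oncogenes, tumour suppressors and related genes that have been linked to arsenic. They were chosen by name, and make up 9 of the 17645 protein-coding genes with at least 3 covered CpGs between 2 kb before and 2 kb beyond the gene. Their loci held 910 of the 1988759 cytosines counted, on 656 CpGs. The assay was reduced representation bisulfite sequencing (RRBS), in which a restriction enzyme selects CpG-rich fragments and bisulfite turns unmethylated cytosines into bases read as thymine. DNA came from the testis of F2 mice, in 5 libraries labelled arsenic and 5 labelled control. Strain, age, dose, route and time of exposure, and the generation that received arsenic, are not given in the labels. Nor do they say whether each library is a separate animal, so p-values measure the spread between libraries, which may be technical. In DNA of whole testis, a change in methylation per cell and a change in the share of a cell type cannot be told apart.

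Most of these genes act in the control of cell division. Hras is a small GTPase that passes growth signals to the kinases of the MAP kinase cascade, and the transcription factors Myc and Fosb, the last a subunit of AP-1, act downstream of such signals. Ccnd1 (cyclin D1) activates the kinases that inactivate the Rb protein. Cdkn2a and Cdkn2b block this step: the Ink4a product of Cdkn2a and the Ink4b product of Cdkn2b inhibit those kinases, while Arf, the other product of Cdkn2a, inhibits Mdm2 and so stabilises p53, the product of Trp53. Tmem54 encodes a membrane protein, and Cd74 the invariant chain of class II antigen presentation, which is also a receptor for the cytokine Mif. CpG islands at gene starts are typically unmethylated, and methylation of the Cdkn2a and Cdkn2b islands is a well-known mark of silencing in tumours.

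Reads over the whole table ranged from 69771871 to 100355708 per library, and over the 9 loci from 29932 to 42939. Control libraries 4 and 5 stood apart from the other 8: 16.9% and 18.8% of their cytosines were fully methylated, against 11.1% to 14.9%. Their median coverage was 27 and 29 reads, against 29 to 40 in the others. Their mean levels were 54.0% and 54.3%, against 53.2% to 53.8%. The part of depth in the share of fully methylated cytosines was not tested. As a check of the tissue label, marker lists were read as means over the measured gene ends of their genes. Germ cell genes, which are unmethylated in germ cells and methylated in somatic cells, averaged 20.1% ± 2.62 in arsenic and 22.9% ± 1.71 in control libraries (SD, n = 5 each; 11 of 12 genes measured). Imprinted promoters that carry maternal methylation in somatic cells averaged 10.7% ± 0.728 in arsenic and 11.8% ± 4.20 in control libraries (6 of 9 measured). Both lists were thus mostly unmethylated. The list of immune cells averaged 82.1% in arsenic and 82.8% in control libraries (4 of 6 measured), that of Sertoli cells 6.10% in arsenic and 7.48% in control libraries (5 of 6 measured), and that of Leydig cells 52.3% in arsenic and 53.4% in control libraries (4 of 5 measured). The Leydig mean joined unlike ends. The Cyp11a1 start was at 6.66% in arsenic and 7.96% in control libraries. The higher-coordinate end of Star was at 94.0% in arsenic and 93.4% in control libraries. The part of cell makeup in the differences at the 9 loci was not tested.

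The promoters below are shown because they are unmethylated starts with at least 9 covered CpGs, and those of Arf and Cdkn2b hold stretches where a single library departed from the others. They are 300 bases from RefSeq (GRCm38.p6, the assembly behind mm10), from 250 bases before to 50 after the start, read 5′ to 3′ on the gene's strand, and capitals mark the CpGs covered in all 10 libraries. The windows are chr7:141193955-141194254 (minus strand) for Hras, chr4:89294570-89294869 (minus strand) for the Arf start of Cdkn2a, chr4:89310983-89311282 (minus strand) for Cdkn2b and chr4:129105280-129105579 (plus strand) for Tmem54.
Hras: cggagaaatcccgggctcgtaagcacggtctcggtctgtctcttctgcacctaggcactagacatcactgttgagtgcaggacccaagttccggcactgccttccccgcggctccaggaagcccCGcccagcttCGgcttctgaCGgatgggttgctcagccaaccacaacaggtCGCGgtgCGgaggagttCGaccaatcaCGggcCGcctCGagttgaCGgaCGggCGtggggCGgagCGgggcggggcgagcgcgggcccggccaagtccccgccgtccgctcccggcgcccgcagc
Cdkn2a, Arf start: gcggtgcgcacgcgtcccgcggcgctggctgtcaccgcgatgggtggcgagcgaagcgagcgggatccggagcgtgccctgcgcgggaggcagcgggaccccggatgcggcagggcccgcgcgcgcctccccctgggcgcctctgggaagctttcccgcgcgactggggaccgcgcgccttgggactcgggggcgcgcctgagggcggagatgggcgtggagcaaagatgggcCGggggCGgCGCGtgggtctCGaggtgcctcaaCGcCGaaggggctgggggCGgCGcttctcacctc
Cdkn2b: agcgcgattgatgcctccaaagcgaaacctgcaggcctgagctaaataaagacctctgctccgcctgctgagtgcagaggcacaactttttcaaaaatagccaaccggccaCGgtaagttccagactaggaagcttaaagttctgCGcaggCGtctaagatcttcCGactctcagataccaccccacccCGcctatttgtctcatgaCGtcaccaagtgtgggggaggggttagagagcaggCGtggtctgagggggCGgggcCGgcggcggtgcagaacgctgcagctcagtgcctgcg
Tmem54: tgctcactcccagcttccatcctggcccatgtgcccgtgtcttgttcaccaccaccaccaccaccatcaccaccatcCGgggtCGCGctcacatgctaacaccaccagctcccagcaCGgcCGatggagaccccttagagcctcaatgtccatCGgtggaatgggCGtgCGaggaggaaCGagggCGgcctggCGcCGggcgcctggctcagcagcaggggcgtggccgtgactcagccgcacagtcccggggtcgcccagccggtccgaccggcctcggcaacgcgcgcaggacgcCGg
The Hras window has 34 CpGs, 15 of them covered; the Arf window has 45, with 9 covered, the Cdkn2b window 18, with 9 covered, and the Tmem54 window 28, with 13 covered. CCGG, the same on both strands, occurs 4, 3, 2 and 6 times in these windows, and it was found in 53% of 32544 distinct promoters of the same length. At the covered CpGs of Hras the level averaged 3.07% ± 3.67 in arsenic and 3.10% ± 3.97 in control libraries (SD, n = 5 each, as in all such values here). The Arf window averaged 2.88% ± 3.97 in arsenic and 1.65% ± 1.64 in control libraries. The corresponding averages were 1.51% ± 2.95 in arsenic and 0.411% ± 0.454 in control libraries for Cdkn2b, and 2.78% ± 2.05 in arsenic and 2.27% ± 1.50 in control libraries for Tmem54. In each of the 4 windows the arsenic and control libraries overlapped. The RefSeq windows of the Ink4a start of Cdkn2a (12 CpGs) and of Trp53 (10 CpGs) had no covered CpG, and that of Fosb (25 CpGs) had 1.

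Along the 9 loci, CpGs were mostly either unmethylated or methylated, with the intermediate levels in a few places. Of the 656 CpGs, 502 had a mean level under 10%, 109 lay between 10% and 90%, and 45 lay over 90%. Myc had 99 of its 100 CpGs under 10%, and Fosb 128 of 144. Cd74 had none under 10% and 8 of 10 over 90%. Hras and Trp53 were split, with 37 and 49 CpGs under 10% and 13 and 14 over 90%. Intermediate CpGs were found mainly in Ccnd1 (30 of 111), Cdkn2a (27 of 83), Cdkn2b (12 of 30), Fosb (16 of 144) and Tmem54 (15 of 59).

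**Figure D1:**
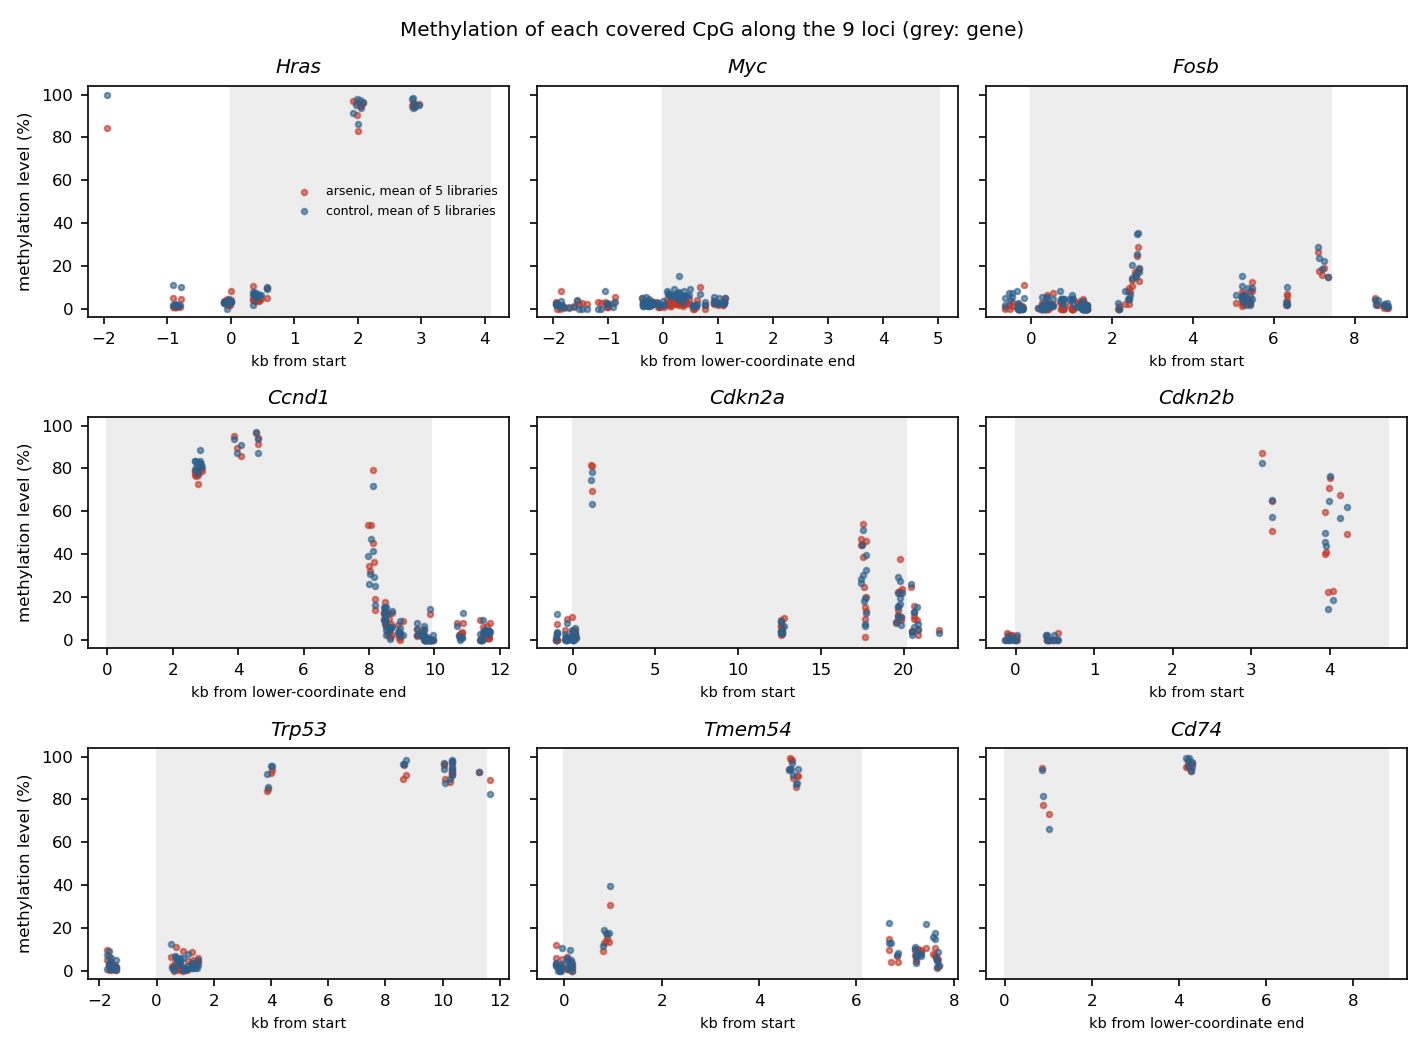
Mean methylation level (y axis, %) of each covered CpG in 5 arsenic (red) and 5 control (blue) libraries along each locus (x axis, kb from the gene's start, or from its lower coordinate where no start was used); grey marks the gene. Red and blue points follow each other: Myc stays low over its covered part, Hras and Tmem54 have low starts and methylated interior CpGs, and Ccnd1, Cdkn2a and Cdkn2b hold intermediate CpGs.

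No end, body, locus, CpG cluster or single CpG of the 9 genes differed between arsenic and control libraries after correction over all features of its kind. Each feature was tested with a quasi-binomial model of methylated out of all reads and called where its Benjamini-Hochberg adjusted p was below 0.05 and the groups were 10 percentage points or more apart. Over the whole table this called 0 of 17721 gene ends (0%), 0 of 14040 gene bodies (0%), 0 of 17645 loci (0%), 0 of 1407384 CpGs (0%) and 1 of 157903 CpG clusters (0.000633%), which is no member's. A gene end is the 1 kb on each side of a gene's start or far end, the body is the gene more than 1 kb from both, and a cluster is a run of at least 3 covered CpGs with gaps of at most 100 bp. Members had an unadjusted p under 0.05 at 0 of 12 ends (6.34% of all ends), 1 of 9 bodies (5.44% of all bodies), 0 of 9 loci (5.71% of all loci), 4 of 57 clusters (5.89% of all clusters) and 28 of 656 CpGs (6.85% of all CpGs). These shares were near or below the background, except for the single body. Under limma, gene ends and loci each had 1 call over the whole table, neither of them at a member.

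The differences were small and of both signs, and none was called. Of the member ends, 9 of 12 were lower in arsenic, as were 10043 of all 17721 ends. Of the member bodies, 4 of 9 were lower in arsenic. The median arsenic minus control difference was -0.463 percentage points over the 12 member ends, against -0.240 over all ends, and 0.116 over the 9 bodies, against -0.149 over all bodies. It was -0.358 over the 57 clusters, against -0.114 over all clusters. Over the 656 CpGs it was -0.320, against -0.055 over all CpGs: 255 CpGs were higher in arsenic, 362 lower and 39 equal. An unadjusted p under 0.05 was found with a higher level in arsenic at 5 of the 656 CpGs (2.93% of all CpGs). It was found with a lower level in arsenic at 23 of the 656 (3.93% of all CpGs). The 10 libraries separated by group at 4 of 656 CpGs (0.575% of all CpGs), and at none of the members' ends, bodies, loci or clusters (0.937%, 0.791%, 0.765% and 0.829% of all). The smallest adjusted p at any member was 0.650, at a CpG of Ccnd1.

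**Figure D2:**
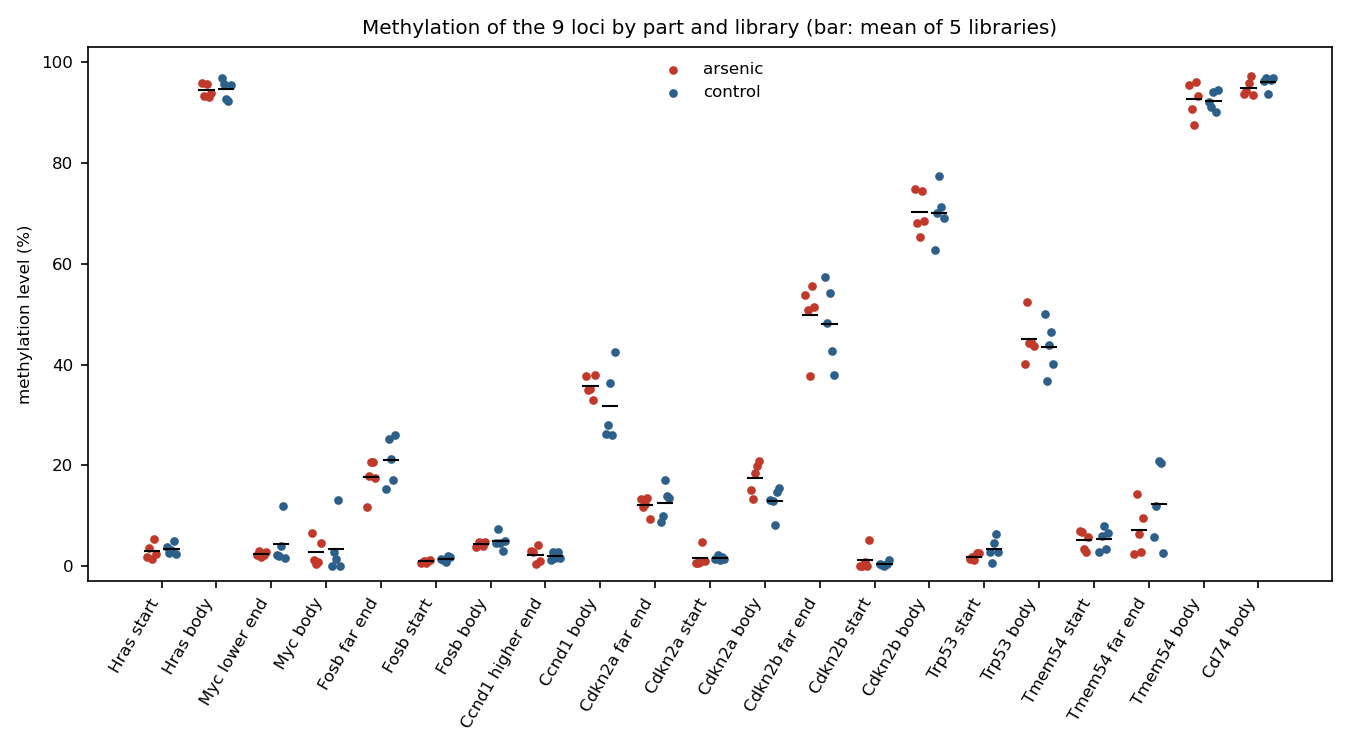
Methylation level (y axis, %) of each measured end and body (x axis) in 5 arsenic (red) and 5 control (blue) libraries, 1 point per library, with a bar at the mean of each group. The groups overlap at each end and body shown; single control points stand apart at Myc (11.9% at the lower end and 13.2% in the body).

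Hras, the GTPase gene (chr7:141189934-141194019, minus strand), had an unmethylated start and a methylated interior. Its start, with 37 CpGs and 1356 to 2243 reads per library, had levels of 1.81%, 3.70%, 1.41%, 5.35% and 2.45% in arsenic libraries 1 to 5, against 3.72%, 2.55%, 3.19%, 5.08% and 2.36% in control libraries 1 to 5. The groups overlapped over their whole range, with means of 2.94% ± 1.60 in arsenic and 3.38% ± 1.09 in control libraries (difference -0.436 points, SE 0.867, adjusted p = 0.936 by the quasi-binomial model). The body averaged 94.4% ± 1.30 in arsenic and 94.6% ± 2.01 in control libraries. Distances here are in bp from the start, negative outside the gene. The 15 CpGs at -110 to 6, those in capitals above, were uneven between libraries of the same group: 0.849%, 7.88%, 0.104%, 6.16% and 0.344% in arsenic and 9.45%, 0%, 4.33%, 1.71% and 0% in control libraries. Some libraries of each group were near 0 there and others several points higher. Of the covered CpGs, 12 lie within Lrrc56, the protein-coding neighbour at chr7:141194111-141210055. The cluster with the smallest p of the 5 averaged 1.31% ± 1.50 in arsenic and 2.58% ± 2.62 in control libraries, at -908 to -789 bp (adjusted p = 0.923). The CpG with the smallest p of the 51, at chr7:141195966 in the flank, was covered by only 10 to 19 reads. It was methylated at 70.6%, 90%, 92.3%, 100% and 68.4% in arsenic libraries and at 100% in all 5 control libraries, so 1 arsenic library was level with them (difference -15.7 points, SE 6.26, adjusted p = 0.660).

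Myc, the transcription factor gene (chr15:61985341-61990361), was unmethylated along all of its covered sequence, apart from 1 library. Coverage ran only from -1954 to 1116 bp from the lower-coordinate end, in a gene of 5021 bp. Its lower-coordinate end, with 72 CpGs and 2803 to 5329 reads, had 2.14%, 2.95%, 1.91%, 2.20% and 2.78% in arsenic libraries, against 2.23%, 1.94%, 3.92%, 11.9% and 1.53% in control libraries. Control library 4 stood far above the others, and the other 9 lay between 1.53% and 3.92%. The means were 2.40% ± 0.444 in arsenic and 4.31% ± 4.34 in control libraries (difference -1.91 points, SE 1.95, adjusted p = 0.861), and without control library 4 the difference was -0.011 points. The excess of that library began abruptly. At -380 to 10 bp from the lower-coordinate end, 22 of 27 CpGs were at 0% in it, on 14 to 46 reads a CpG. At 73 to 293 bp, 18 of 19 CpGs were over 20%, with a median of 23.3% on 19 to 72 reads, and control library 4 was the highest of the 10 libraries at 18 of them. The other libraries had a median of 2.53% there. The level then fell, with medians of 17.4% over 11 CpGs at 335 to 488 bp and 5.23% over 8 CpGs at 537 to 762 bp. It was higher again, at a median of 13.4%, over 12 CpGs at 917 to 1116 bp. The 7 CpGs of the body are part of that last stretch and share its reads. They had 6.53%, 1.16%, 0.530%, 0.746% and 4.69% in arsenic and 0%, 2.76%, 1.50%, 13.2% and 0% in control libraries. The high value of control library 4 in the body is thus not a further observation. The cluster with the smallest p of the 4, the 65 CpGs at -380 to 762 bp, had the same pattern, with 2.35% ± 0.628 in arsenic and 4.56% ± 4.54 in control libraries (adjusted p = 0.888). The CpG with the smallest p of the 100, at chr15:61983400, was at 0% in all 5 arsenic libraries on 96 to 189 reads, which allows up to 1.59% to 3.12%. In control libraries it was at 0%, 4.6%, 1.48%, 4.08% and 0%, so the groups overlapped at 0 (difference -2.03 points, SE 0.983, adjusted p = 0.676).

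The same library departed at Hras. At 348 to 570 bp inside Hras, control library 4 had 12 of 13 CpGs over 20%, on 20 to 42 reads, all on the plus strand. The cluster was at 3.31%, 2.06%, 6%, 2.35% and 10.5% in arsenic libraries and at 1.37%, 7.39%, 1%, 22.7% and 0.581% in control libraries. Departures of this kind, with 1 library at least 5 points above the next, were found at 5 of the 39 member clusters with a mean under 10%, 3 of them in control library 4, 1 in control library 5 and 1 in arsenic library 5. Over all 28473 such clusters 20.9% had one: 3.75% in control library 4, 5.89% in control library 5, and 1.14% to 2.04% in each other library. The part of control library 4's higher share of fully methylated cytosines in these stretches was not tested.

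**Figure D3:**
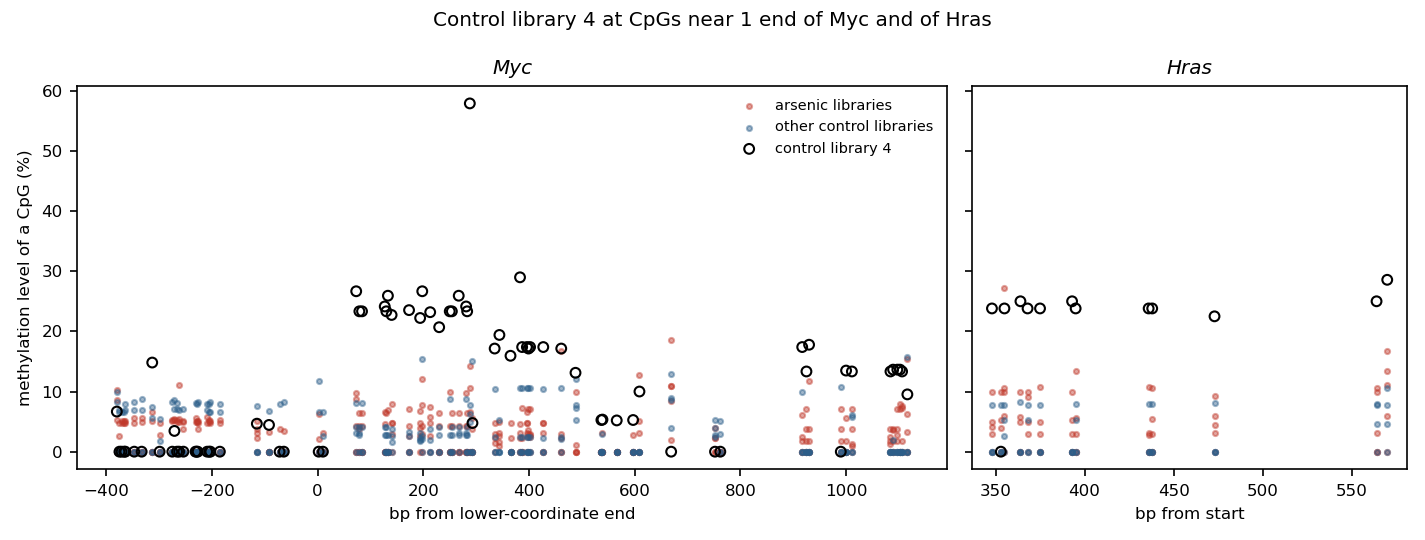
Methylation level (y axis, %) of single CpGs by distance in bp (x axis) from the lower-coordinate end of Myc and from the start of Hras, in 5 arsenic libraries (red), 4 control libraries (blue) and control library 4 (open circles). Open circles lie at 0 at 22 of the 27 Myc CpGs up to 10 bp, over 20% at 18 of 19 from 73 to 293 bp, and above the other libraries at 11 of 13 CpGs in Hras.

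Fosb, the AP-1 gene (chr7:19302696-19310118, minus strand), had the most covered CpGs of the 9, and a start near 0% with little spread between libraries. Over 61 CpGs and 3511 to 5366 reads, the start had 0.696%, 1.03%, 0.652%, 1.04% and 1.26% in arsenic libraries, against 1.39%, 1.18%, 0.870%, 1.94% and 1.74% in control libraries. The groups overlapped, with means of 0.935% ± 0.255 in arsenic and 1.42% ± 0.427 in control libraries (difference -0.489 points, SE 0.222, p = 0.070 and adjusted p = 0.789 by the quasi-binomial model). Its SD over the 10 libraries was at percentile 1.5 among gene ends with a mean of 0% to 5%, which are 56.3% of all ends. The mean of the Fosb start over the 10 libraries was 1.18%, and its SD was not compared at like depth. The difference was 0.00205 points where each cytosine had at least 20 reads in each library. The cluster with the smallest p of the 57 in all lay at -643 to -453 bp, with 6 CpGs and 72 to 258 reads. It had 0%, 2.33%, 0.704%, 0% and 2.41% in arsenic and 4.83%, 7.59%, 7.75%, 5.56% and 0% in control libraries. Of the control libraries, 4 were above all arsenic libraries and the fifth was at 0 (difference -4.06 points, adjusted p = 0.812). A second cluster, at 727 to 827 bp, was at 0% to 2.40% in arsenic libraries and at 10.2%, 1.82%, 0%, 8.75% and 1.50% in control libraries. Further in, the gene had isolated partly methylated stretches: 14 CpGs at 2332 to 2684 bp were at 4.61% to 27.1% over the 10 libraries, and the 5 CpGs of the far end at 11.7% to 26.1%. The far end averaged 17.7% ± 3.68 in arsenic and 21.0% ± 4.78 in control libraries. From 5206 to 6340 bp, and from 8493 bp on, clusters were under 10% in each library. Of the 144 CpGs, that with the smallest p, chr7:19310431, was at 0% in all 5 arsenic libraries on 77 to 138 reads, which allows up to 2.17% to 3.90%, and at 4.82%, 0%, 4.94%, 2.13% and 0% in control libraries. The groups thus overlapped at 0 (difference -2.38 points, SE 1.09, adjusted p = 0.672).

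Ccnd1, the cyclin D1 gene (chr7:144929931-144939831), showed a gradient from an unmethylated end to a methylated interior. From its higher-coordinate end inwards, the mean over the 10 libraries was 1.53% at 9585 to 9953 bp from the lower-coordinate end, 3.88% at 9464 to 9479 bp and 3.67% at 8902 to 9025 bp. It was 8.01% at 8458 to 8711 bp, 42.5% at 7972 to 8183 bp, 93.4% at 4542 to 4605 bp and 79.4% at 2692 to 2888 bp. In each library the cluster at 7972 to 8183 bp, at 35.4% to 53.6%, lay above the 4 given that are nearer that end, none of which passed 16.6%. The higher-coordinate end, with 43 CpGs, averaged 2.30% ± 1.54 in arsenic and 2.04% ± 0.718 in control libraries (difference 0.255 points, SE 0.758, adjusted p = 0.962). The body had 37.7%, 34.9%, 35.2%, 32.9% and 37.9% in arsenic libraries, against 26.2%, 28.0%, 36.4%, 26.1% and 42.4% in control libraries. Arsenic libraries lay within the wider range of the control libraries (difference 3.89 points, SE 3.39, adjusted p = 0.971). This difference was -0.317 points when each cytosine was weighted equally. The cause was not tested. The cluster at 2692 to 2888 bp was the farthest from the higher-coordinate end. It had 85.8%, 83.2%, 68.3%, 58.2% and 91.0% in arsenic libraries and 90.9%, 78.8%, 86.5%, 66.5% and 84.4% in control libraries. Libraries of both groups were low there, and its SD was at percentile 90.9 among clusters with a mean of 20% to 80%.

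The CpG with the smallest p of all 656 was in the Ccnd1 flank, at chr7:144940700. It lay in the cluster with the smallest p of the 9, at 10697 to 10876 bp, which averaged 3.06% ± 2.31 in arsenic and 1.64% ± 0.760 in control libraries (adjusted p = 0.887). The CpG was at 3.31%, 1.36%, 1.2%, 5.10% and 1.20% in arsenic libraries and at 0% in all 5 control libraries, on 126 to 176 control reads, which allow up to 1.70% to 2.38%. The groups did not overlap, but 3 of the arsenic levels were under the highest of those limits (difference 2.44 points, SE 0.775, adjusted p = 0.650). A second Ccnd1 CpG without overlap, at chr7:144937937 on the slope, was at 31.5% to 38.6% in arsenic and 14.3% to 29.4% in control libraries (difference 8.61 points, SE 3.17, adjusted p = 0.766).

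Cdkn2a, the gene of Ink4a and Arf (chr4:89274473-89294619, minus strand), was unmethylated at its Arf start and in the stretch beside the Ink4a start. The Arf start, with 36 CpGs and 1070 to 2200 reads, had 0.585%, 0.631%, 0.909%, 4.88% and 0.943% in arsenic libraries, against 1.52%, 2.17%, 1.23%, 1.74% and 1.50% in control libraries. Arsenic library 4 was the highest of the 10, and the other 4 arsenic libraries were below all control libraries (difference -0.041 points, SE 0.841, adjusted p = 1). In that library 14 of the 20 CpGs at -16 to 181 bp were the highest of all libraries, with a median of 6.67%. On the minus strand its level was 7.83% over 766 reads, and on the plus strand 0% over 87 reads, where only 2 cytosines were covered. Near the Ink4a start, which RefSeq places at chr4:89282192, the 8 CpGs at chr4:89281957-89282033 were at 2.78%, 4.07%, 7.88%, 3.62% and 5.66% in arsenic and at 3.53%, 4.54%, 2.73%, 6.75% and 3.44% in control libraries. The Arf start and these 8 CpGs were thus under 10% in each library, while the Ink4a start itself was not covered. Between them, 3 CpGs at 1095 to 1192 bp were at 63.6% to 84.7%.

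The Cdkn2a body was the 1 member body, end or locus with an unadjusted p under 0.05. It had 15.0%, 13.4%, 18.4%, 19.9% and 20.8% in arsenic libraries, against 13.1%, 12.9%, 8.15%, 14.7% and 15.4% in control libraries. Of the arsenic libraries, 3 were above all control libraries and the other 2 lay among them. The means were 17.5% ± 3.20 in arsenic and 12.8% ± 2.84 in control libraries (difference 4.66 points, SE 1.91, p = 0.033 and adjusted p = 0.894 by the quasi-binomial model). The difference was 0.890 points at cytosines with at least 20 reads in each library and 2.29 points with each cytosine weighted equally. Of its clusters, the 12 CpGs at 17404 to 17722 bp varied most, with 27.8%, 27.8%, 23.2%, 28.2% and 41.7% in arsenic and 28.1%, 31.5%, 8.41%, 34.5% and 29.9% in control libraries. The groups overlapped there, with 1 high arsenic and 1 low control library. That cluster held the CpG with the smallest p of the 83, chr4:89277212, with 57.9%, 42.9%, 21.4%, 40.9% and 72.2% in arsenic and 19%, 33.3%, 23.5%, 25.0% and 30.8% in control libraries, on 12 to 26 reads (difference 20.7 points, SE 8.93, adjusted p = 0.725). The cluster with the smallest p was another, at -1005 to -911 bp, with 1.15% ± 1.28 in arsenic and 3.65% ± 2.78 in control libraries (adjusted p = 0.829). The far end was partly methylated, with 12.1% ± 1.69 in arsenic and 12.6% ± 3.36 in control libraries.

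Cdkn2b, the Ink4b gene (chr4:89306289-89311032, minus strand), contrasted an unmethylated start with a partly methylated remainder. All 30 of its covered CpGs, and 6 of those of Cdkn2a, lie within the long non-coding RNA gene Gm12610. The start, with 18 CpGs and 333 to 869 reads, had 0%, 0%, 0.921%, 0% and 5.11% in arsenic libraries, against 0.391%, 0.224%, 0%, 0.356% and 1.32% in control libraries. Arsenic library 5 alone exceeded 2% (difference 0.747 points, SE 1.02, adjusted p = 0.941). Its excess lay in the promoter shown above, where 6 minus-strand cytosines were at 18.0% over 89 reads and 9 plus-strand cytosines at 0% over 148 reads. The 9 CpGs form the cluster with the smallest p of the 3 (adjusted p = 0.960). Of the 30 CpGs, that with the smallest p, chr4:89311136, was at 12.1% in that library, at 3.64% in arsenic library 3 and at 0% in the other 8, where 0 reads allow up to 4.11% to 6.82% (adjusted p = 0.729). The far end had 53.8%, 50.8%, 37.8%, 55.6% and 51.5% in arsenic libraries, against 57.4%, 48.3%, 54.2%, 42.7% and 38.0% in control libraries. The groups spanned the same range (difference 1.79 points, SE 4.75, adjusted p = 0.996). The 3 body CpGs averaged 70.2% ± 4.23 in arsenic and 70.1% ± 5.21 in control libraries.

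Trp53, the p53 gene (chr11:69580348-69591873, plus strand), was unmethylated over its first part and methylated further in. Its start, with 18 CpGs and 1080 to 2044 reads, had 1.37%, 1.73%, 1.17%, 2.52% and 2.63% in arsenic libraries, against 2.76%, 0.648%, 4.6%, 6.38% and 2.74% in control libraries. Of the control libraries, 4 were above all arsenic libraries and the other was the lowest of the 10. The means were 1.89% ± 0.664 in arsenic and 3.43% ± 2.16 in control libraries (difference -1.54 points, SE 1.01, p = 0.066 and adjusted p = 0.784 by the quasi-binomial model), and without control library 4 the difference was -0.802 points. The CpG with the smallest p of the 68, chr11:69581134, was at 0%, 0%, 1.07%, 0% and 0% in arsenic libraries and at 1.53%, 0%, 7.84%, 8.62% and 2.36% in control libraries (difference -3.86 points, SE 1.76, adjusted p = 0.651). It lay in the cluster with the smallest p of the 6, at 508 to 1084 bp, which averaged 1.76% ± 0.542 in arsenic and 3.16% ± 1.89 in control libraries (p = 0.040 and adjusted p = 0.837 by the quasi-binomial model). Both groups were low there. The start draws largely on the CpGs of this cluster, which lie well inside the gene. The start, the cluster and the CpG thus share reads and are not separate results. The next cluster, at 1224 to 1463 bp, went the other way in 1 library: arsenic library 2 was at 8.66%, against 0.570% to 4.42% in the other arsenic and 0.363% to 6.27% in the control libraries. The 15 CpGs at -1731 to -1406 bp lie in Wrap53, the neighbouring gene, and were at 1.72% to 4.94% in all libraries. From 8603 bp onwards 3 clusters were over 90% in each library. In the last of them, the CpG at chr11:69590661 did not overlap between the groups, with 91.1% to 92.7% in arsenic and 93.4% to 100% in control libraries (difference -4.74 points, SE 1.17, adjusted p = 0.753). The body as a whole averaged 45% ± 4.52 in arsenic and 43.5% ± 5.25 in control libraries.

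Tmem54, the membrane protein gene (chr4:129105529-129111626, plus strand), had a low start, a methylated interior and an uneven far end. The start, with 29 CpGs, had 7%, 6.70%, 3.32%, 2.83% and 5.70% in arsenic libraries, against 2.89%, 5.96%, 7.95%, 3.51% and 6.64% in control libraries. The groups overlapped over their range (difference -0.279 points, SE 1.29, adjusted p = 0.958). Its first CpGs were at 2.22%, as a mean over the libraries for -172 to -53 bp, and the 6 CpGs at 797 to 948 bp at 17.9%. The body averaged 92.6% ± 3.55 in arsenic and 92.3% ± 1.84 in control libraries. The far end, with 5 CpGs and 148 to 343 reads, had 2.38%, 14.3%, 6.41%, 2.84% and 9.55% in arsenic libraries, against 5.85%, 12%, 20.9%, 20.4% and 2.70% in control libraries. Of the control libraries, 2 were above the rest, and the others lay among the arsenic libraries (difference -5.27 points, SE 4.32, adjusted p = 0.861). Of the 59 CpGs, that with the smallest p, chr4:129112235, lay in its cluster with the smallest p (6660 to 6706 bp, adjusted p = 0.878) and had the same 2 libraries on top, with 0% to 10.6% in arsenic and 0% to 25.4% in control libraries (difference -8.85 points, SE 5.12, adjusted p = 0.698). Hpca, a neuronal calcium sensor gene at chr4:129111570-129125919, overlaps this end, and 22 covered CpGs of the locus lie in it. At 7580 to 7696 bp, inside Hpca, control library 5 was at 26.8% on 97 reads, and the next library, arsenic library 1, at 15.5%.

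Cd74, the invariant chain gene (chr18:60803849-60812652), was methylated at most of its covered CpGs, and neither of its ends had enough CpGs. Over the 10 libraries, 2 of its 10 CpGs were partly methylated, at 79.3% (chr18:60804735) and 69.8% (chr18:60804870), and the other 8 were over 90%. Its body, with 8 CpGs and 305 to 731 reads, had 93.7%, 94.2%, 95.9%, 97.3% and 93.4% in arsenic libraries, against 96.2%, 96.9%, 93.6%, 96.4% and 96.9% in control libraries. The groups overlapped (difference -1.09 points, SE 0.965, adjusted p = 0.972). At the first of the 7 CpGs of its cluster, chr18:60808008, the groups did not overlap, with 96.3%, 93.9%, 94.5%, 95.5% and 95.2% in arsenic and 100%, 97.8%, 100%, 100% and 98.6% in control libraries (difference -4.22 points, SE 0.614, adjusted p = 0.676). The cluster as a whole averaged 95.8% ± 1.38 in arsenic and 97.4% ± 1.16 in control libraries (adjusted p = 0.880).

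**Figure D4:**
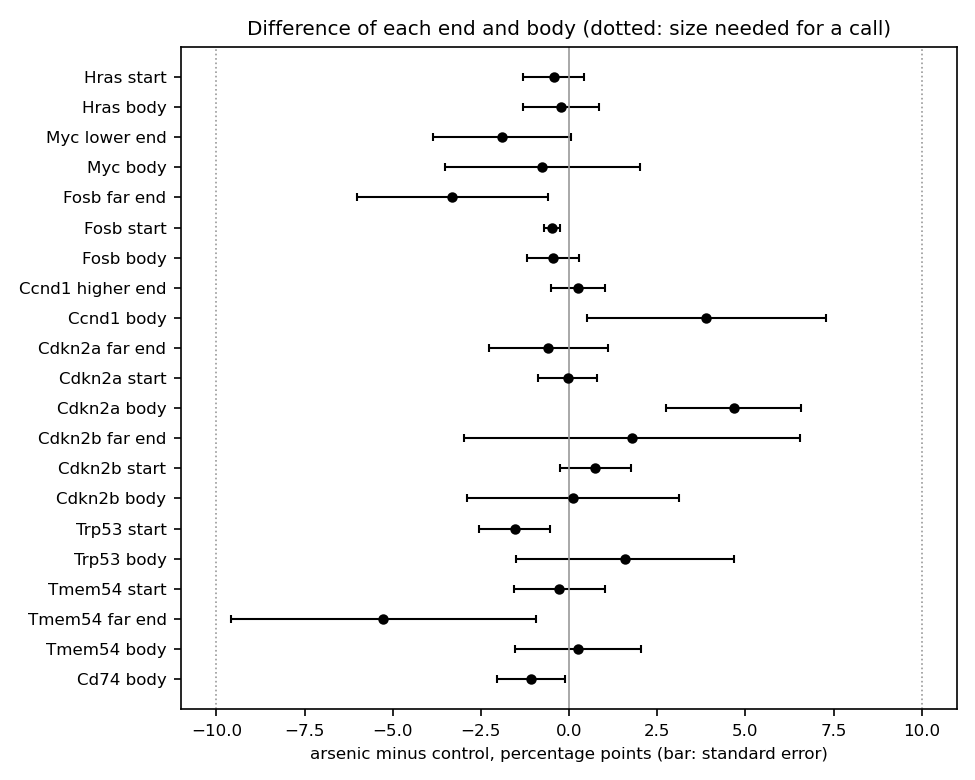
Difference in methylation level, arsenic minus control, in percentage points (x axis) at each measured end and body (rows), with bars of 1 standard error from 5 libraries a group; dotted lines mark the 10 points needed for a call. All points lie within the dotted lines, from -5.27 at the far end of Tmem54 to 4.66 in the body of Cdkn2a.

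Other genes of the same pathways were read at their ends, in lists chosen by function. None of their ends was called. In the Ras pathway, 1 of 24 ends had an unadjusted p under 0.05 (6.34% of all ends): Rasa1, a GTPase-activating protein for Ras, with 0.535% ± 0.298 in arsenic and 2.30% ± 1.56 in control libraries (difference -1.76 points, adjusted p = 0.722). The start of Sos2, a Ras exchange factor, was next, at 0.308% ± 0.203 in arsenic and 3.27% ± 5.54 in control libraries, of which control library 1 alone was at 13.1%. In the AP-1 family 2 of 18 ends did, both lower in arsenic (4.38% of all ends). Fos, the partner of Jun, averaged 0.980% ± 0.475 in arsenic and 4.46% ± 4.78 in control libraries (adjusted p = 0.765), and the higher-coordinate end of Maf 0.824% ± 0.721 in arsenic and 2.38% ± 1.62 in control libraries (adjusted p = 0.749). The control values of Fos were spread from 0.420% to 12.3%, the highest in control library 4, and held the whole arsenic range. Its difference of -3.48 points ran from -4.49 to -1.51 when each library was left out in turn. In the Myc network 0 of 12 ends did. The smallest p there were at Mga, a Max partner, with 4.33% ± 2.23 in arsenic and 1.87% ± 2.25 in control libraries, and at Mnt, a repressor that also binds Max, with 0.834% ± 0.377 in arsenic and 1.32% ± 0.717 in control libraries.

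Among the genes of the G1 phase and Rb, 3 of 21 ends had an unadjusted p under 0.05 (6.34% of all ends). Of these, 2 were higher (1.95% of all ends) and 1 was lower in arsenic (4.38% of all ends). At 3 ends the groups did not overlap (0.937% of all ends). The lower one was Cdkn1c, an imprinted cyclin-dependent kinase inhibitor. Its lower-coordinate end was at 5.84% to 7.21% in arsenic and 9.15% to 19.6% in control libraries, with means of 6.57% ± 0.579 in arsenic and 13.8% ± 3.92 in control libraries (difference -7.24 points, SE 1.77, adjusted p = 0.459). The higher-coordinate end of Ccnd2, cyclin D2, was at 0.697% to 1.43% in arsenic and at 0% in all control libraries (adjusted p = 0.722). The arsenic levels rest on 2 to 4 methylated reads a library, and the control zeros, on 183 to 389 reads, allow up to 0.771% to 1.64%. In the p53 pathway 2 of 19 ends had an unadjusted p under 0.05 (6.34% of all ends). Pmaip1, a target of p53 in cell death, averaged 5.84% ± 1.90 in arsenic and 3.64% ± 0.811 in control libraries, and Ccng1, another p53 target, 1.18% ± 1.19 in arsenic and 3.45% ± 3.83 in control libraries (adjusted p = 0.749 and 0.765). Of other tumour suppressors 0 of 16 ends did. Apc averaged 1.97% ± 1.30 in arsenic and 0.619% ± 0.482 in control libraries, and Cdh1 3.06% ± 0.625 in arsenic and 4.31% ± 1.36 in control libraries.

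The list of Cd74 partners and class II genes had 1 of 8 ends with an unadjusted p under 0.05 (6.34% of all ends). This was the start of Mif, the ligand of Cd74, at 3.54% to 11.9% in arsenic and 8.40% to 25.5% in control libraries, with means of 7.02% ± 3.56 in arsenic and 18.7% ± 7.24 in control libraries. The groups overlapped, and its difference of -11.7 points (SE 3.61, adjusted p = 0.666) was past the 10 points of a call but not the adjusted p. The far end of the same gene averaged 33.5% ± 6.19 in arsenic and 26.6% ± 6.76 in control libraries (adjusted p = 0.851). The median differences of the 7 lists ran from -0.909 points for the p53 pathway to 0.542 for the Myc network, against -0.240 over all ends.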

How the data were processed

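Per the submitters' processing notes, methylKit 1.22.0, Bismark 0.22.3 and Trim Galore 0.6.5 were used on the genome build mm10, with settings not given here. The authors deposited unnormalised read counts per cytosine and library (all, methylated and unmethylated), and each count of all reads was at least 10. Without molecular identifiers, the limit that 0 methylated reads allow (3 counts over the reads) covers counting error alone. Levels are methylated over all reads of a feature, and thus weight deeply covered cytosines more. Libraries were grouped and numbered by their titles.

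Gene coordinates came from a RefSeq table of GRCm38.p6, and strands and starts from its promoter sequences; the base matched at 100 of 100 table cytosines in the members' promoters. No genome sequence was used. Gene ends, bodies, loci, clusters and CpGs (strands summed) over all protein-coding genes or the whole table were each fitted with a quasi-binomial logistic model with a group term. Pearson dispersion was squeezed across features and not allowed under 1, followed by an F test and Benjamini-Hochberg adjustment over all features of the kind. The model was tested on simulated data. Software was limma 3.58.1 in R 4.3.3, and numpy 2.4.6, scipy 1.17.1 and pandas 2.3.3 in Python 3.11.15.

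The members, lists, thresholds and alternatives were chosen with earlier results of these data known. All members are named; in each locus the CpG and the cluster with the smallest p are named, and in each list the 2 ends with the smallest p. CpGs whose groups do not overlap, and stretches where 1 library stood apart, were chosen for their values. The alternatives were a replicate block, limma on log2((methylated + 1)/(unmethylated + 1)), leaving out each library, and control libraries 4 and 5 together. The others were a coverage of at least 20, a cap at the 99.9th percentile of coverage, at least 5 CpGs, ends of 500 bp, and equal weights for cytosines, a value with no test.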

Additional observations from a re-analysis of the deposited data

Results flagged for a closer look

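In 13 of 124 groups of 5 libraries, the highest or lowest library lay farther from the next than Dixon's 95% limit allows. That limit flags about 1 in 20 groups only where values are independent and normally spread. Many groups here share reads, lie near 0% or were chosen for a small p. The count of flags therefore cannot be set against that rate. Control library 4 was high at the lower-coordinate end of Myc (11.9%; other control libraries 1.53% to 3.92%), in its body (13.2%; others 0% to 2.76%), over its locus (9.27%; others 1.29% to 3.41%) and in its cluster with the smallest p (12.4%; others 1.46% to 4.41%). The locus holds the CpGs of the others, and the end holds those of the cluster, so these share reads. The body and that cluster have no CpG in common. Arsenic library 4 was high at the Cdkn2a start (4.88%; other arsenic libraries 0.585% to 0.943%). Arsenic library 5 was high at the Cdkn2b start (5.11%; others 0% to 0.921%) and in its cluster with the smallest p (6.75%; others 0% to 0.800%), which share reads. Arsenic library 3 was low at the Cdkn2b far end (37.8%; others 50.8% to 55.6%) and alone above 0 at the Trp53 CpG with the smallest p (1.07%; others 0%). Control library 3 was low in the Cd74 body (93.6%; others 96.2% to 96.9%) and in the Cd74 cluster (95.4%; others 97.7% to 98.4%), which share reads. Control library 5 was high in the Hras cluster with the smallest p, at -908 to -789 bp (7.11%; others 0.703% to 2.52%), and control library 1 at the start of Sos2 (13.1%; others 0% to 2.06%).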

How the results depend on the processing

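No end, body or locus of the 9 genes, and none of the clusters and CpGs with the smallest p in a locus, was called under any alternative run. Over all clusters, 1 was called; this became 0 to 1 when a library was left out, and 0 with the replicate block, without control libraries 4 and 5, or at a coverage of at least 20. Limma called 1 gene end and 1 locus. The cause was not tested. Uncalled differences changed sign. In percentage points, the replicate block gave 0.062 at the Cdkn2a start and 0.177 at the Tmem54 locus. Limma, its mean log ratios turned back into levels, gave -0.162 at the Ccnd1 higher-coordinate end, -0.016 at the Cdkn2b start and 0.412 in the Myc body. Without control libraries 4 and 5 the values were 0.153 at the Cdkn2a far end, -3.38 at the Cdkn2b far end, 1.31 in the Myc body and 1.27 at the Tmem54 locus. A coverage of at least 20 gave 0.00205 at the Fosb start, 0.593 at the Cdkn2a start, -0.566 at the Cdkn2b start and its cluster, and 0.089 at the Trp53 locus. Ends of 500 bp gave 0.088 at the Hras start, -0.548 at the Ccnd1 higher-coordinate end, 0.519 at the Cdkn2a start, 0.948 in the Hras body, -0.114 in the Trp53 body and -0.554 in the Tmem54 body. Leaving out each library in turn gave -0.225 to 0.705 at Ccnd1 higher-coordinate end, -1.56 to 0.527 at Cdkn2a far end, -0.864 to 0.210 at Cdkn2a start, -0.735 to 4.82 at Cdkn2b far end, -0.228 to 1.05 at Cdkn2b start, -0.905 to 0.360 at Tmem54 start, -0.813 to 0.346 at Hras body, -1.71 to 1.67 at Myc body, -0.945 to 0.158 at Fosb body, -1.71 to 1.94 at Cdkn2b body, -0.274 to 3.23 at Trp53 body, -0.588 to 1.56 at Tmem54 body, -1.92 to 0.075 at Myc locus, -0.265 to 0.672 at Cdkn2a locus, -1.30 to 0.331 at Trp53 locus, -1.78 to 1.07 at Tmem54 locus and -0.211 to 1.48 at the Cdkn2b cluster with the smallest p. The deviations of same-numbered libraries correlated at -0.025 to 0.023, so the numbers were not taken as pairs. Equal weights, which moved the Fosb start to -0.860, turned the sign in the Ccnd1 body (-0.317), the Cdkn2b body (-0.875), the Trp53 body (-0.456), at the Hras locus (-0.625), the Ccnd1 locus (-0.285) and the Cdkn2a start (0.234). Depth limits what a level of 0 shows: 0 of 189 reads, at the Myc CpG with the smallest p, allows up to 1.59%.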
